A study of Homo sapiens with 6 samples.

Results

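The neuroendocrine markers described here are 7 genes that pathologists and tumour biologists use to recognise neuroendocrine cells: CHGA, CHGB, SYP, UCHL1, NCAM1, INSM1 and SLC18A2. They were taken as a list of symbols, with no threshold on a measured value, and all 7 were found among the 61552 genes of the files. The cells were NCI-H520, a long-established line from a human squamous carcinoma of the lung, so that both groups are 1 line and carry its genotype, which the labels give as WT. In the treated group, 3 libraries were made after 48 h in 2 µM cisplatin, which forms platinum crosslinks in DNA, and the 3 control libraries after 48 h with phosphate-buffered saline (PBS). All cells were grown in RPMI-1640 medium with 15% fetal bovine serum. The title of the series is about SOX2, a transcription factor, and drug resistance of squamous lung cancer. Here the question is how the markers differ after the drug. Nothing in the labels says that replicates were separate cultures, and the p-values therefore reflect the spread among these 6 samples alone, which could be technical.

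Neuroendocrine cells of the airway are scattered epithelial cells that store amines and peptides in dense-core granules and release them on stimulation. Chromogranins CHGA and CHGB are acidic proteins that pack those granules, SLC18A2 (VMAT2) loads amines into them, and SYP (synaptophysin) is a membrane protein of small synaptic-like vesicles. INSM1 is a zinc finger transcription factor of neuroendocrine differentiation, NCAM1 (CD56) is a surface adhesion molecule, and UCHL1 (PGP9.5) is a deubiquitinating enzyme abundant in neurons and neuroendocrine cells. In the clinic such markers separate small cell and other neuroendocrine tumours from squamous carcinoma, and REST, a repressor of neuronal genes, keeps many genes of this kind silent in other epithelia.

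Promoter letters are shown for the 4 of 7 members that matched the RefSeq promoter table, to set 2 genes called higher under cisplatin, UCHL1 and SLC18A2, beside CHGA and SYP, which were not. CHGB, also called higher, INSM1 and NCAM1 are not shown. Each run holds the 120 bases before the RefSeq start of the gene (GRCh38.p14), 5′ to 3′ on the strand of the gene. In the GENCODE 29 annotation the starts differ. That of UCHL1 (41256413) lies before the whole window, and those of CHGA (92923080), SLC18A2 (117241073) and SYP (49200259) lie inside theirs. All of the UCHL1 window and part of each other window thus lie within the gene in that annotation. Capitals mark 3 motifs searched on both strands: TGACGT, the core of the cAMP response element, TATAA, the core of the TATA box, and GGGCGG, the GC box.
UCHL1, chr4:41256808-41256927, plus strand: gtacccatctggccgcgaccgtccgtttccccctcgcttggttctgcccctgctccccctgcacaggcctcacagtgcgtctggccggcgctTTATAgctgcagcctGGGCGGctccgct
SLC18A2, chr10:117240994-117241113, plus strand: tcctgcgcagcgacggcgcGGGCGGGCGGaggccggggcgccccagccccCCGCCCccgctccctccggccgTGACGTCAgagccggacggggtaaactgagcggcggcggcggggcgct
CHGA, chr14:92923030-92923149, plus strand: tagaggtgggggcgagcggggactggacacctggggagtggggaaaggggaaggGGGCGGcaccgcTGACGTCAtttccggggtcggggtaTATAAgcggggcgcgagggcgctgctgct
SYP, chrX:49200194-49200313, minus strand: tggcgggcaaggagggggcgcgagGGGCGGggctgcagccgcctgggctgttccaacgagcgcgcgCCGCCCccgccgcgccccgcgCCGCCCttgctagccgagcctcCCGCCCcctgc
SLC18A2 and CHGA each hold the cAMP response element core on both strands, as overlapping matches that begin 48 and 54 bases before the start. Of 35116 RefSeq windows of the same length, 4.79% hold that core, 10.2% hold TATAA and 34.0% hold GGGCGG. The TATAA core lies 29 bases before the start in CHGA and, on the other strand, 28 bases before it in UCHL1. GC boxes numbered 4 in SYP, 3 in SLC18A2 (of which 2 overlap) and 1 each in UCHL1 and CHGA. The windows of SLC18A2 and SYP are 82.5% G and C, that of CHGA is 69.2% and that of UCHL1 is 68.3%. The SLC18A2 and CHGA windows, which both hold the cAMP response element core, belong to a gene called higher and to one that was near the detection limit in both groups.

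Expected counts per library totalled 9925328 to 16724285 with cisplatin and 9121180 to 15589897 with PBS. Mitochondrially encoded genes took 3.26% to 4.13% of the counts with cisplatin and 4.15% to 6.05% with PBS. The first principal component held 58.9% of the variance and separated the groups. Of the 11 squamous markers, TP63 and PKP1 had at most 3 counts in any library and KRT17 and DSG3 were at 0. KRT5 had 47 to 70 counts with cisplatin and 50 to 88 with PBS, DSC3 had 70 to 100 with cisplatin and 37 to 111 with PBS, and TRIM29 had 223 to 309 with cisplatin and 88 to 121 with PBS. SOX2 had 3028 to 5872 counts with cisplatin and 2520 to 4844 with PBS. The summed level of all 11 squamous markers was 341 to 387 CPM with cisplatin and 305 to 350 CPM with PBS, where CPM are counts scaled to a common library size after TMM adjustment. Most of that sum was SOX2, at 323 ± 26.7 CPM with cisplatin and 309 ± 24.2 CPM with PBS (SD, n = 3 each). KRT14 had 2, 3 and 5 counts with cisplatin and 0, 0 and 1 with PBS, too few to be tested. KRT6A and CALML3 averaged 2.17 and 2.28 CPM with cisplatin and 1.82 and 1.95 CPM with PBS. Of the 11 squamous markers, 4 were thus at or near 0 in every library and 6 had enough counts to be tested.

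Of the 7 members, UCHL1, CHGB and SLC18A2 were called higher under cisplatin, by 1.59-, 1.33- and 4.11-fold, and none was called lower. NCAM1, INSM1 and SYP did not pass the test. For SLC18A2, a change in RNA cannot be told apart from a change in how reads shared with the overlapping gene PDZD8 were divided. CHGA had too few counts to be tested. A gene was called when the quasi-likelihood test of edgeR gave a Benjamini-Hochberg adjusted p under 0.05 over 15063 genes, of which 38.2% were called in either direction, 18.9% higher and 19.3% lower under cisplatin. The count of 3 higher of 6 tested members stands beside that background, and 3 of 6 called is not far above it. In CPM, the groups did not overlap for 4 members, 3 higher and 1 lower under cisplatin. Over all tested genes, 25.2% did not overlap with cisplatin higher and 24.5% with cisplatin lower, 49.7% in all. The median log2 fold change was 0.18 over the 6 tested members and -0.0003 over all tested genes. In bulk RNA, fewer cells of a type and less RNA per cell cannot be told apart.

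**Figure D1:**
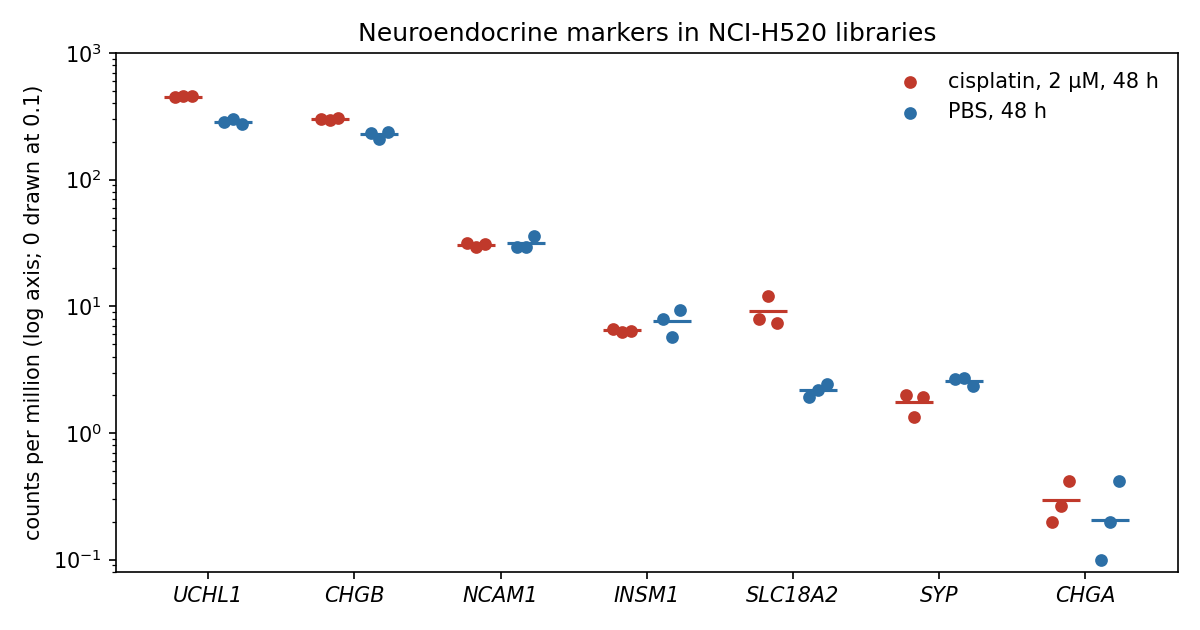
Level of each of the 7 markers in every library, in CPM on a log axis, with cisplatin (red) left of PBS (blue); points are libraries, short lines are group means, and the CHGA value of 0 in a PBS library is drawn at 0.1. UCHL1 and CHGB lie far above the other 5 markers in all 6 libraries, and SLC18A2 is at 7.32 to 12.1 CPM with cisplatin and 1.91 to 2.45 CPM with PBS.

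Per transcript length, 2 members made up nearly all of the marker signal. In TPM, a level scaled by transcript length, the 7 markers summed to 876, 862 and 783 in the cisplatin libraries, against 554, 566 and 616 in the PBS libraries. That is 840 ± 50.2 TPM with cisplatin and 579 ± 32.7 TPM with PBS (SD, n = 3 each). UCHL1 gave 79.7% to 81.7% of the sum with cisplatin and 74.5% to 79.7% with PBS, and CHGB gave 16.8% to 18.6% with cisplatin and 18% to 22.4% with PBS. By mean TPM the order under cisplatin was UCHL1 (680), CHGB (147), NCAM1 (6.50), SLC18A2 (2.67), INSM1 (2.64), SYP (1.08) and CHGA (0.263). SLC18A2 and INSM1 overlapped in that order, since SLC18A2 ran from 2.09 to 3.54 TPM and INSM1 from 2.54 to 2.78 TPM. In PBS cells the order was UCHL1 (445), CHGB (119), NCAM1 (9.43), INSM1 (3.38), SYP (1.72), SLC18A2 (0.667) and CHGA (0.237), where SLC18A2 and CHGA overlapped. By these 7 members alone, the profile of the cells was therefore uneven, with a deubiquitinase and 1 chromogranin abundant and the other granule and vesicle members low.

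The granule proteins are given first. CHGB (ENSG00000089199, GRCh38 chr20:5911430-5925361, plus strand), a chromogranin, had 302, 297 and 309 CPM in the cisplatin libraries, against 235, 209 and 239 CPM in the PBS libraries. Every cisplatin library was above every PBS library. CHGB averaged 302 ± 5.97 CPM with cisplatin and 228 ± 16.4 CPM with PBS (SD, n = 3 each), a log2 fold change of 0.41 ± 0.07 (SE, 95% interval 0.25 to 0.57) with an edgeR adjusted p of 0.00122. CHGB was not called by limma on log2(TPM + 1), where its log2 fold change was 0.32 and its adjusted p 0.0725, nor in the edgeR test against a change of 1.5-fold. That limma fit called 8.02% of tested genes higher and 11% lower, and 2 members, UCHL1 and SLC18A2, higher. In TPM the groups again did not overlap, with 149, 145 and 146 under cisplatin against 116, 102 and 138 under PBS.

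CHGA (ENSG00000100604, chr14:92923080-92935293, plus strand), the chromogranin most used as a serum and tissue marker, had 2, 3 and 7 counts in the cisplatin libraries and 0, 3 and 6 counts in the PBS libraries. Its counts summed to 12 with cisplatin and 9 with PBS, and the groups overlapped. The limit that a count of 0 allows, 3 counts in a library, was 0.180 to 0.335 CPM over the 6 libraries, which covers counting error only. No difference in CHGA was detectable at this depth, so of the chromogranin pair only CHGB could be compared.

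SLC18A2 (ENSG00000165646, chr10:117241073-117279430, plus strand), the vesicular monoamine transporter, had 7.99, 12.1 and 7.32 CPM in the cisplatin libraries, against 1.91, 2.18 and 2.45 CPM in the PBS libraries. Each cisplatin library was above each PBS library, and the replicate 2 library was the highest of the cisplatin group. SLC18A2 averaged 9.13 ± 2.58 CPM with cisplatin and 2.18 ± 0.273 CPM with PBS (SD, n = 3 each), and its log2 fold change of 2.04 ± 0.23 (SE, 95% interval 1.54 to 2.54, edgeR adjusted p = 5.6e-05) was the 45th highest of the 15063 tested genes. It was the 1 member still called in the test against a change of 1.5-fold (adjusted p = 0.00137), and leaving out any 1 library kept its log2 fold change between 1.80 and 2.20. On the log2(TPM + 1) scale, which understates changes of low genes, the groups kept their direction (adjusted p = 0.00416).

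The SLC18A2 value needs its neighbour beside it. The last 2157 exonic bases of SLC18A2 (GRCh38 chr10:117277274-117279430, outside its coding sequence) are also exonic in PDZD8 (ENSG00000165650, chr10:117277274-117375467, minus strand), an endoplasmic reticulum protein with a PDZ domain. In the GENCODE 29 annotation they are 52.0% of the exonic bases of SLC18A2 and 21.8% of those of PDZD8. The use of strand in counting is not given in the sources used here.

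PDZD8 fell under cisplatin while SLC18A2 rose. PDZD8 had 36.2, 40.1 and 36.9 CPM in the cisplatin libraries, against 51.8, 67.2 and 51.8 CPM in the PBS libraries, without overlap. Its log2 fold change was -0.60 ± 0.11 (SE, edgeR adjusted p = 0.00123). With an offset for transcript length, described below, the PDZD8 value was -0.32 (edgeR adjusted p = 0.0305). In expected counts, SLC18A2 had 80.21, 135.7 and 121.83 with cisplatin, against 17.09, 33.11 and 35.2 with PBS. PDZD8 had 362.79, 450.3 and 614.17 with cisplatin, against 463.91, 1021.89 and 742.8 with PBS. Neither gene was whole in any library, yet their sums were whole to within 0.015 in 6 of 6 libraries: 443, 586 and 736 with cisplatin, against 481, 1055 and 778 with PBS. Of all tested genes, 68.8% had whole counts in every library.

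Of the counts of both genes, SLC18A2 held 18.1%, 23.2% and 16.6% in the cisplatin libraries, against 3.55%, 3.14% and 4.52% in the PBS libraries. With both genes summed as 1 feature, an alternative that removes any division of shared reads, the level was 44.1, 52.2 and 44.2 CPM with cisplatin, against 53.7, 69.4 and 54.2 CPM with PBS. That is lower by a log2 fold change of -0.34 ± 0.11 (SE, 95% interval -0.58 to -0.10, edgeR adjusted p = 0.0296). The call on the sum did not hold when PBS replicate 2 was left out (-0.20, adjusted p = 0.128), nor without cisplatin replicate 1 (-0.30 and 0.114) or cisplatin replicate 3 (-0.30 and 0.104), nor with an offset for transcript length (-0.22 and 0.138). Within this overlapping pair, the share assigned to SLC18A2 was higher under cisplatin while the sum was lower. A change in SLC18A2 RNA and a change in how shared reads were divided cannot be told apart in these files.

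**Figure D2:**
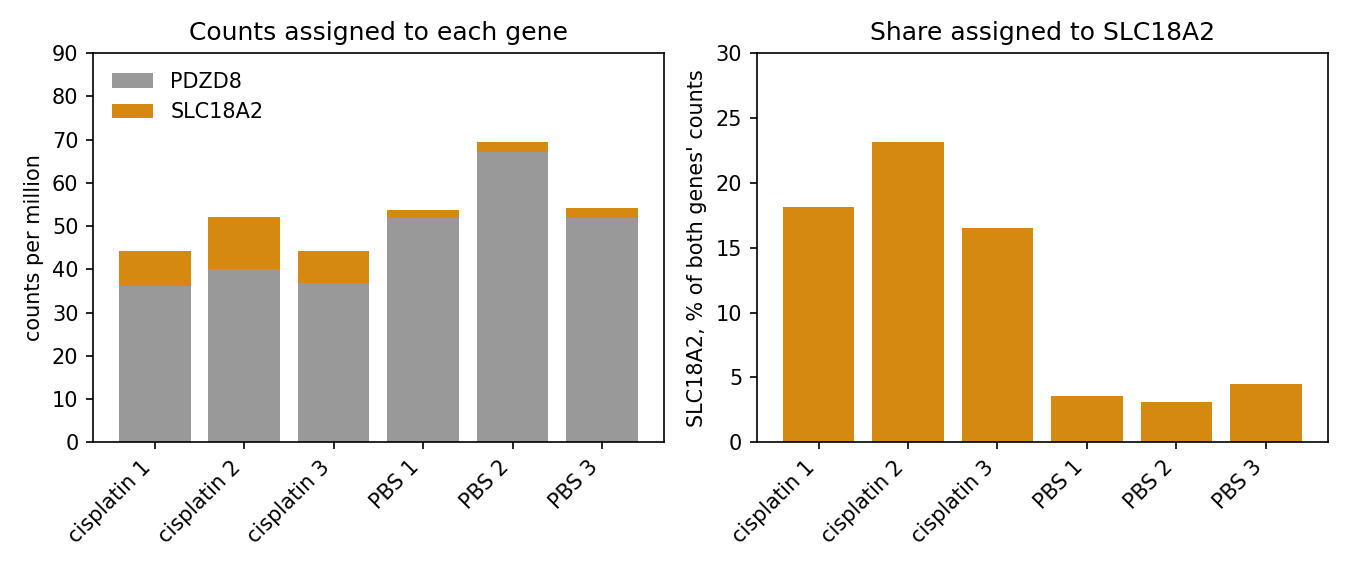
Left, counts of SLC18A2 (orange) stacked on those of the overlapping gene PDZD8 (grey) in every library, in CPM, so that bar height is their sum; right, the percentage of both genes' counts assigned to SLC18A2. The sum is 44.1 to 52.2 CPM with cisplatin and 53.7 to 69.4 CPM with PBS, while the SLC18A2 share is 16.6% to 23.2% with cisplatin and 3.14% to 4.52% with PBS.

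SYP (ENSG00000102003, chrX:49187804-49200259, minus strand), the vesicle membrane protein, had 20, 15 and 32 counts in the cisplatin libraries and 24, 41 and 34 counts in the PBS libraries. In CPM these were 1.99, 1.34 and 1.92 with cisplatin, against 2.68, 2.7 and 2.37 with PBS. Every cisplatin library was below every PBS library. The log2 fold change was -0.55 ± 0.25 (SE, 95% interval -1.08 to -0.01), and the edgeR adjusted p of 0.0967 did not pass (unadjusted p = 0.0448). It did not pass in any alternative fit that tested it, and the filter of 50 counts left it out. An antisense gene, SYP-AS1, overlaps 68 of its exonic bases and was at 0 in all 6 libraries.

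UCHL1 (ENSG00000154277, chr4:41256413-41268455, plus strand) was the most abundant member, at rank 237 by mean TPM of the 29327 genes with a TPM above 0. The ubiquitin hydrolase had 452, 454 and 454 CPM in the cisplatin libraries, against 286, 299 and 273 CPM in the PBS libraries. The cisplatin libraries were close to one another, and all were above the PBS libraries. UCHL1 averaged 453 ± 0.841 CPM with cisplatin and 286 ± 13 CPM with PBS (SD, n = 3 each), a log2 fold change of 0.67 ± 0.07 (SE, 95% interval 0.52 to 0.82, edgeR adjusted p = 3.4e-05). In TPM it had 713, 704 and 623 with cisplatin, against 424, 451 and 459 with PBS, again without overlap. It did not pass the test against a change of 1.5-fold (adjusted p = 0.459). Its antisense partner UCHL1-AS1, which overlaps 135 exonic bases, was at 0 in all libraries.

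Fold changes ran with transcript length in these libraries. With the tested genes in 5 equal bins from the shortest to the longest transcripts, the median log2 fold change was 0.20, 0.10, 0.01, -0.09 and -0.24. With this trend removed by an offset in the edgeR fit, UCHL1, a short transcript, had a log2 fold change of 0.47 (adjusted p = 1.1e-04), CHGB 0.40 (adjusted p = 6.2e-04) and SLC18A2 2.17 (adjusted p = 2.1e-05). All 3 were still called higher, beside 17.1% of tested genes called higher and 16.9% called lower in that fit.

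**Figure D3:**
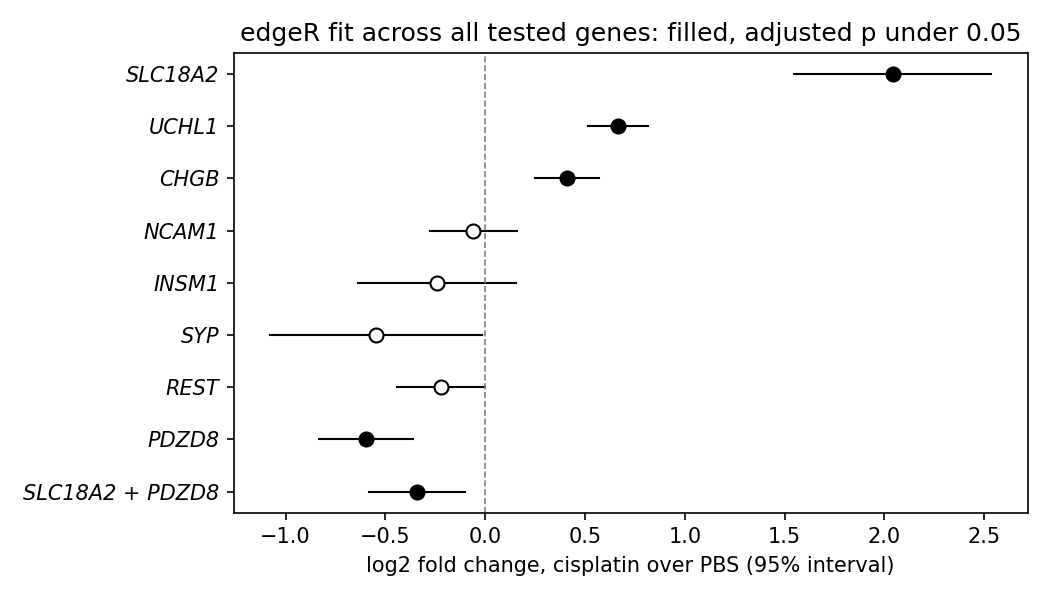
Log2 fold change, cisplatin over PBS, with 95% intervals from the edgeR fit, of the 6 tested markers, REST, PDZD8 and the sum of SLC18A2 and PDZD8 (filled points are called, open points are not). SLC18A2 at 2.04, UCHL1 at 0.67 and CHGB at 0.41 have intervals above 0, and the sum of SLC18A2 and PDZD8 lies at -0.34.

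NCAM1 (ENSG00000149294, chr11:112961247-113278436, plus strand), the adhesion molecule, had 31.4, 29.3 and 31.1 CPM in the cisplatin libraries, against 29.6, 29.7 and 36.2 CPM in the PBS libraries. The groups overlapped, and PBS replicate 3 was the highest library. The log2 fold change was -0.06 ± 0.10 (SE, 95% interval -0.28 to 0.16, edgeR adjusted p = 0.672). It turned to 0.04 without PBS replicate 3 (adjusted p = 0.760) and to 0.13 with the length offset (adjusted p = 0.317).

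In TPM, however, NCAM1 did not overlap. It had 6.79, 5.64 and 7.06 TPM with cisplatin, against 8.20, 7.98 and 12.1 TPM with PBS, although limma on log2(TPM + 1) did not call it (log2 fold change -0.46, adjusted p = 0.107). Over all tested genes, 24.8% did not overlap in TPM with cisplatin lower and 15.6% with cisplatin higher. The transcript length that the authors deposited for NCAM1, an average over its isoforms by their abundance, was 5158, 5680 and 4765 bases with cisplatin, against 4102, 4152 and 3942 bases with PBS. Every cisplatin library had the longer value, as did 6.86% of tested genes, while 8.89% were shorter without overlap. TPM divides by that length, whereas CPM does not. The length is an estimate from short reads, and single isoforms were not in the files used here. The antisense genes NCAM1-AS1 and AP000802.1 had at most 13 and 14 counts in any library.

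**Figure D4:**
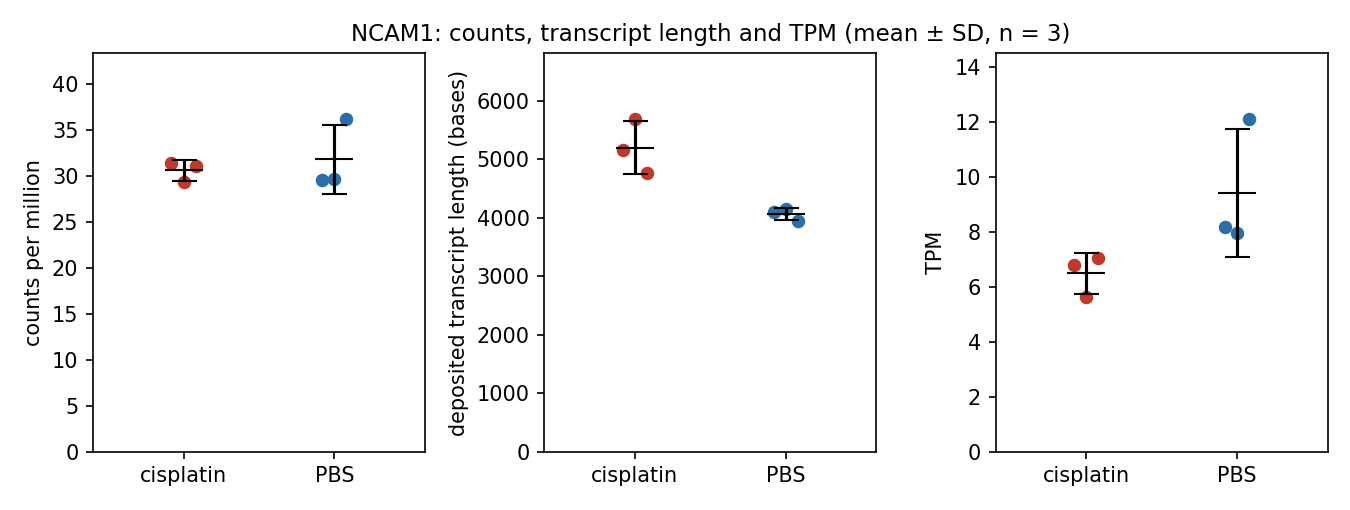
NCAM1 in every library as CPM (left), deposited transcript length in bases (middle) and TPM (right), with cisplatin (red) left of PBS (blue); points are libraries and black bars are the mean ± SD (n = 3 each). CPM overlap, while the 3 cisplatin libraries have lengths of 4765 to 5680 bases, against 3942 to 4152 bases with PBS, and lie lower in TPM.

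INSM1 (ENSG00000173404, chr20:20368121-20370949, plus strand), a gene of 1 exon, had 6.68, 6.32 and 6.37 CPM in the cisplatin libraries, against 7.93, 5.72 and 9.34 CPM in the PBS libraries. The PBS libraries spread around the cisplatin values. The log2 fold change was -0.24 ± 0.18 (SE, 95% interval -0.64 to 0.15, edgeR adjusted p = 0.316). That interval takes in a fall of 0.64 as well as a rise of 0.15. The INSM1 value was -0.43 without PBS replicate 2 (edgeR adjusted p = 0.0535) and -0.05 without PBS replicate 3 (edgeR adjusted p = 0.847).

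Of the transcription factors that can stand above these markers, most had too few counts to be tested. NEUROD1, which marks a subtype of small cell lung cancer, was at 0 in all 6 libraries. Of 16 neuroendocrine transcription factors listed, 6 were tested, and of these 2 were higher and 4 lower under cisplatin (median log2 fold change -0.30). Among all tested genes, 18.9% were called higher and 19.3% lower. Of the 6, ONECUT2, a homeodomain factor, had the largest change in the edgeR fit, at 6.32 ± 0.927 CPM with cisplatin and 15.1 ± 1.91 CPM with PBS (log2 fold change -1.25, edgeR adjusted p = 8.8e-05). Limma on log2(TPM + 1) did not call it (-0.41, adjusted p = 0.0633). POU3F2 (BRN2), a neural POU factor, fell to 36.3 ± 2.01 CPM with cisplatin, against 57.9 ± 6.31 CPM with PBS (-0.68, adjusted p = 2.6e-04). NKX2-1, a lung lineage factor also seen in small cell tumours, was higher, at 7.25 ± 0.133 CPM with cisplatin and 4.07 ± 0.633 CPM with PBS (0.81, adjusted p = 0.00218). Its expected counts were not whole with cisplatin (73.76, 79.73 and 121.68) but were whole with PBS (30, 69 and 62). Whether a division of shared reads adds to the NKX2-1 change was not tested. FOXA2 fell by 0.28 and ISL1 was higher by 0.61 on the log2 scale. The FOXA2 call was lost without cisplatin replicate 1 (adjusted p = 0.0675) or 2 (0.0935). The ISL1 call was lost without any 1 of 4 libraries (adjusted p = 0.0527 to 0.0917), namely cisplatin replicates 1 and 3 and PBS replicates 1 and 3, and in DESeq2 (0.115). NKX2-1 was not called by limma on log2(TPM + 0.1) (adjusted p = 0.0562).

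REST itself (chr4:56907876-56966678, plus strand) had 50.3, 53.6 and 50.9 CPM with cisplatin, against 53.7, 70.0 and 56.1 CPM with PBS. The 3 cisplatin libraries were the lowest, but the log2 fold change of -0.22 ± 0.10 (SE) did not pass in edgeR (adjusted p = 0.104). Limma on log2(TPM + 1) called it lower (-0.47, adjusted p = 0.0332), and the length offset turned it to 0.07 (adjusted p = 0.592). Over all tested genes, 18.9% were called higher and 19.3% lower. Of 10 genes of REST and its corepressors, all were tested, 1 was higher and 2 were lower (median -0.19). HDAC1, a histone deacetylase of the complex, was the higher one, at 154 ± 3.51 CPM with cisplatin and 127 ± 6.40 CPM with PBS (0.28, adjusted p = 0.00908). RCOR3 and SIN3A, a corepressor and a scaffold, were called lower at -0.40 and -0.19. The RCOR3 call was lost without PBS replicate 2 and without cisplatin replicates 1 or 3 (adjusted p = 0.0505 to 0.0950). The SIN3A call was lost without any library except PBS replicate 2 (adjusted p = 0.0826 to 0.151), with the length offset (-0.0028, adjusted p = 0.979), and under upper quartile and total count scaling, without the count filter, in DESeq2 and on TPM (adjusted p = 0.0676 to 0.142). On log2(TPM + 1), limma called neither HDAC1 (0.15, adjusted p = 0.327) nor RCOR3 (-0.26, adjusted p = 0.304).

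A pair of expression signatures that separate neuroendocrine from other small cell lung cancers were read beside the members. Both had more genes called higher than lower, beside 18.9% higher and 19.3% lower among all tested genes. Of the 21 genes of the neuroendocrine signature that are not members, 15 were tested, 6 were higher, none was lower and 9 were not called (median log2 fold change 0.49). The summed level of the 21 genes was 665 to 700 CPM with cisplatin and 688 to 821 CPM with PBS, so that the sum did not follow the count of calls. Most of it was KIF1A, at 479 ± 20.1 CPM with cisplatin and 562 ± 65.0 CPM with PBS, which edgeR did not call (adjusted p = 0.0542). TFF3, a secreted trefoil peptide, had 5.44 ± 0.922 CPM with cisplatin and 1.92 ± 0.287 CPM with PBS (1.54, adjusted p = 2.3e-04). CRMP1, a neuronal cytoskeletal regulator, had 21.6 ± 2.63 CPM with cisplatin and 12.8 ± 1.63 CPM with PBS (0.74, adjusted p = 9.96e-04). TMSB15A was called at 0.98 (adjusted p = 0.00148). Its counts were whole in all 6 libraries to within 0.015, while those of its near copy TMSB15B were not. In limma on log2(TPM + 1), the calls of TFF3 (0.63, adjusted p = 0.111) and CRMP1 (0.56, adjusted p = 0.0544) were lost, and TFF3 overlapped in TPM, with 14.1, 11.5 and 14.0 under cisplatin against 13.4, 6.19 and 6.42 under PBS.

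Of the 25 genes of the non-neuroendocrine signature, 16 were tested, 9 were higher and 1 was lower (median 0.62). LGALS3, a galectin, had 166 ± 6.10 CPM with cisplatin and 86.3 ± 4.76 CPM with PBS (0.94, adjusted p = 6.7e-06). CAV1, the caveolar coat protein, had 7.62 ± 0.668 CPM with cisplatin and 2.81 ± 0.205 CPM with PBS (1.43, adjusted p = 8.4e-05), and TGFBI, a matrix protein, was higher by 1.03 (adjusted p = 5.3e-05). YAP1, the transcriptional coactivator that is low in neuroendocrine small cell tumours, fell to 52.6 ± 1.78 CPM with cisplatin, against 70.3 ± 4.56 CPM with PBS (-0.42, adjusted p = 0.00163). The difference between the signatures was not tested.

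Beyond the chromogranins, 7 of 14 granule cargo and prohormone processing genes were tested, 3 were higher and 1 was lower (median -0.03). The shares over all tested genes were 18.9% higher and 19.3% lower. PCSK1N, CPE and SCG5, an inhibitor of prohormone convertase, a carboxypeptidase that trims prohormones and a chaperone of convertase, were called higher at 0.55, 0.40 and 0.78. Each of these calls was lost without several libraries. For PCSK1N these were PBS replicates 1 and 3 and cisplatin replicate 3 (adjusted p = 0.0567 to 0.180), for CPE PBS replicates 1 and 2 and cisplatin replicates 1 and 2 (0.0657 to 0.146), and for SCG5 every library except cisplatin replicate 3 (0.0559 to 0.167). None of the 3 was called by limma on log2(TPM + 1) (adjusted p = 0.0870 to 0.215), and the length offset ended the calls of PCSK1N (0.34, adjusted p = 0.148) and SCG5 (0.60, adjusted p = 0.116). The expected counts of SCG5 were mostly not whole, at 24, 33.29 and 31.27 with cisplatin, against 11.19, 23.11 and 19.21 with PBS. CADPS2, which primes granules for release, was lower at 6.86 ± 1.22 CPM with cisplatin and 10.2 ± 0.723 CPM with PBS (-0.57, adjusted p = 0.0116), a call lost without cisplatin replicate 1 (adjusted p = 0.0525) and on log2(TPM + 1) (adjusted p = 0.0939).

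Of 16 synaptic vesicle and exocytosis genes, 12 were tested, 1 was higher and 3 were lower (median -0.17), beside 18.9% higher and 19.3% lower among all tested genes. SYT1, the calcium sensor of fast release, fell to 127 ± 3.24 CPM with cisplatin, against 191 ± 3.34 CPM with PBS (-0.59, adjusted p = 6.3e-05). SYT7, a slower calcium sensor, fell to 116 ± 5.67 CPM with cisplatin, against 167 ± 21.5 CPM with PBS (-0.53, adjusted p = 0.00108). CPLX2, which clamps the fusion complex, was lower by a log2 fold change of -0.25 and SV2A, a vesicle glycoprotein, higher by 0.19. The CPLX2 call was lost without PBS replicate 1 and without cisplatin replicates 1 or 2 (adjusted p = 0.0722 to 0.0857) and with the length offset (-0.0891, adjusted p = 0.356), and the SV2A call without any 1 of the 6 libraries (adjusted p = 0.0544 to 0.126). On log2(TPM + 1), limma called neither CPLX2 (-0.33, adjusted p = 0.0510) nor SV2A (0.11, adjusted p = 0.489). Of 6 relatives of SYP, 4 were tested, and SYNGR1 was the 1 called, at 10.9 ± 1.51 CPM with cisplatin and 6.12 ± 1.06 CPM with PBS (0.82, adjusted p = 0.00211), though not on log2(TPM + 1) (0.53, adjusted p = 0.0530).

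Most genes of the amines that SLC18A2 carries were below the count filter. Of 14 genes of amine synthesis, transport and breakdown, 10 had too few counts to be tested, 6 of them with at most 3 counts in any library, and 1 of the other 4, MAOB, was called (median 0.13). Among all tested genes, 18.9% were called higher and 19.3% lower. MAOB, which breaks amines down, had 30.9 ± 2.80 CPM with cisplatin and 20.3 ± 3.18 CPM with PBS (0.62, adjusted p = 0.00181), a call lost in limma on log2(TPM + 1) (0.48, adjusted p = 0.0573). Of 12 neuropeptides and hormones, 2 were tested and CALCB was called higher at 0.52 (adjusted p = 0.0328). Its near copy CALCA was at 0 in all libraries. The CALCB call was lost without any library except cisplatin replicate 1 (adjusted p = 0.0552 to 0.140), in DESeq2 (0.136) and with the length offset (0.32, adjusted p = 0.169).

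All 7 genes of the ubiquitin list, which holds relatives of UCHL1 and the ubiquitin genes themselves, were tested, 3 were higher and none was lower (median 0.14). UBB and RPS27A, which encode ubiquitin, were among those called, at 0.51 and 0.45 (adjusted p = 5.1e-04 and 0.00326). The shares over all tested genes were 18.9% called higher and 19.3% lower. Ubiquitin coding sequences are near copies. The counts of UBB were whole in all 6 libraries to within 0.015.

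Around NCAM1, 6 of 9 genes of neural adhesion and polysialylation were tested, 1 was higher and 2 were lower (median 0.17). Over all tested genes, 18.9% were called higher and 19.3% lower. CHL1, an adhesion molecule of the L1 family, fell to 218 ± 9.58 CPM with cisplatin, against 352 ± 18.9 CPM with PBS (-0.69, adjusted p = 3.8e-05). NRCAM, of the same family, was called lower at -0.33 (adjusted p = 0.00792), though not with the length offset (-0.16, adjusted p = 0.117). FGFR1, a receptor that binds NCAM1, was higher at 0.41 (adjusted p = 0.00249), though not on log2(TPM + 1) (0.28, adjusted p = 0.148). Among 12 other neuronal and small cell tumour markers, 7 were tested, 1 was higher and 1 lower (median -0.08). TUBB3, a neuronal tubulin, had 133 ± 4.29 CPM with cisplatin and 74.2 ± 5.94 CPM with PBS (0.85, adjusted p = 1.8e-05). The expected counts of TUBB3 were not whole in any library, and a division of shared reads was not tested. HES6, a Notch pathway regulator, was called at -0.34 (adjusted p = 0.0356), a call lost without any library except cisplatin replicate 3 (adjusted p = 0.0618 to 0.146).

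**Figure D5:**
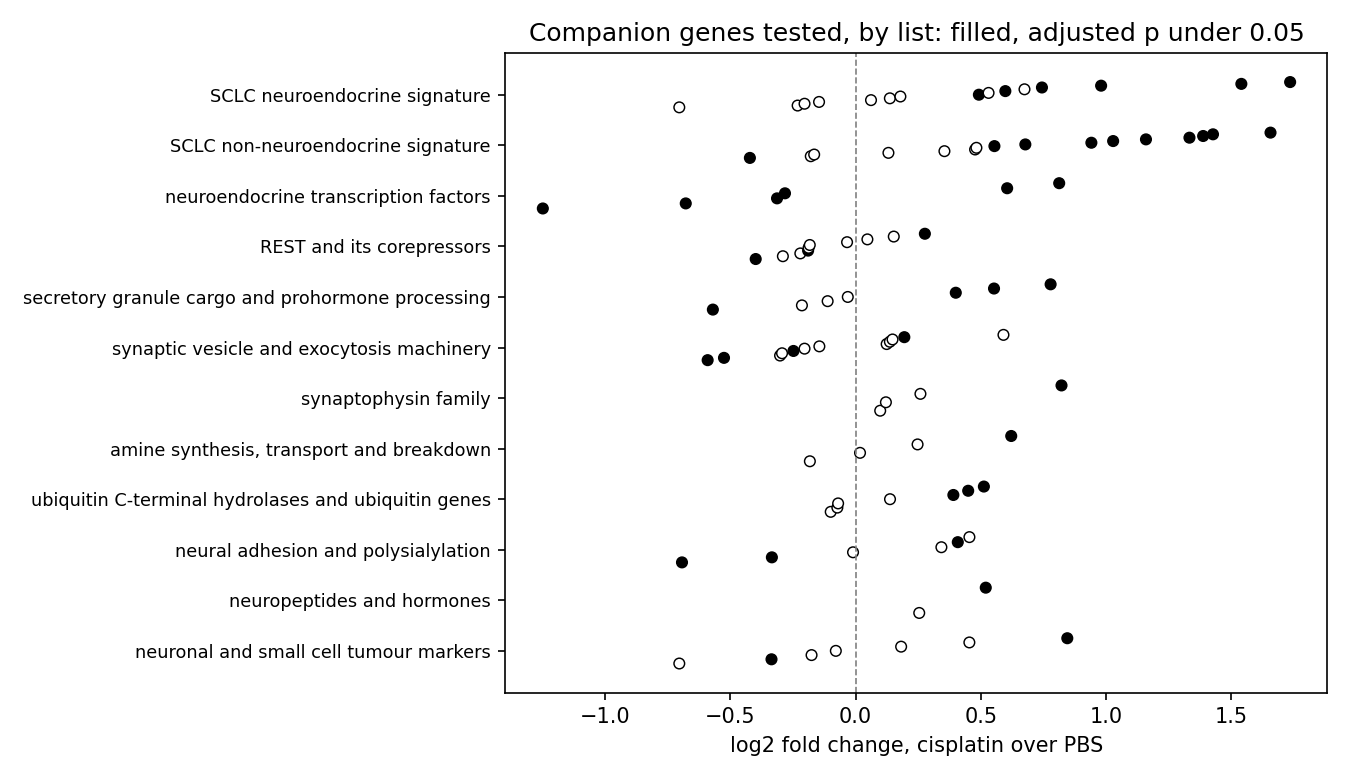
Log2 fold change, cisplatin over PBS, on the horizontal axis for every tested gene of the 12 companion lists, 1 list a row (filled points are called by edgeR at an adjusted p under 0.05, open points are not; small vertical offsets only separate points). Both small cell lung cancer (SCLC) signatures hold more filled points right of 0 than left of it, with none left of 0 in the neuroendocrine one.

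The genes whose levels ran nearest to the 3 called members were found among 10540 genes by the root mean square difference of centred log2 CPM over the 6 libraries. For UCHL1 these were PDZD11 (0.0220) and BIRC5 (0.0392), for CHGB CCNL2 (0.0270) and PLEKHG4B (0.0278), and for SLC18A2 OAS1 (0.189) and IL22RA1 (0.197). OAS1, an interferon-induced enzyme, had 8.47, 13.1 and 10.03 CPM with cisplatin, against 3.13, 2.83 and 2.72 CPM with PBS, so that it shared with SLC18A2 its highest library. BIRC5 (survivin), a chromosomal passenger protein, had 265, 274 and 266 CPM with cisplatin, against 172, 177 and 152 CPM with PBS.

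Markers of other cell types were read in the same libraries, and their part in the results was not tested. Neuron markers summed to 205 to 215 CPM with cisplatin and 253 to 277 CPM with PBS, with 2 of 7 tested, 1 lower, NEFM at 0 and STMN2 and ELAVL4 at 3 counts or fewer. Nearly all of that sum was the 1 gene called lower, NEFL, at 208 ± 5.15 CPM with cisplatin and 261 ± 12.6 CPM with PBS. The 6 adenocarcinoma markers summed to 19.1 to 23.3 CPM with cisplatin and 12.5 to 15.0 CPM with PBS. Of these, 3 were tested and 2 called higher, and NAPSA, SFTPB and SFTPC were at 3 counts or fewer. Fibroblast markers summed to 23.0 to 24.5 CPM with cisplatin and 10.5 to 15.3 CPM with PBS, with COL3A1 at 0. Only COL1A1 of the 6 was tested, and it was called higher. It made up most of that sum, at 22.3 ± 0.568 CPM with cisplatin and 12.7 ± 2.43 CPM with PBS, but overlapped in TPM. Immune markers summed to 3.25 to 4.09 CPM with cisplatin and 0.670 to 1.32 CPM with PBS, with PTPRC and CD3E at 0. Only LYZ of the 5 was tested, and it was called higher. Endothelial markers summed to 0.498 to 1.25 CPM with cisplatin and 0.329 to 1.05 CPM with PBS, and none was tested. Of the 11 squamous markers 6 were tested and 1, TRIM29, was called higher. These calls stand beside 18.9% called higher and 19.3% called lower among all tested genes.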

How the data were processed

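Total RNA from 3 cisplatin and 3 PBS samples was sequenced. The authors deposited, per the file headers, RSEM-style expected counts per gene (not normalized), TPM, FPKM (not used here) and transcript lengths for each sample. Alignment used STAR 2.7.9 and GRCh38 (hg38), per the submitters' processing notes. The quantifier's version, annotation release and use of strand were not given in the sources used here.

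Symbols matched 61399 of 61552 genes, and GENCODE 29 gave positions for 58352. Rounded expected counts were tested with edgeR 4.0.16 in R 4.3.3, using filterByExpr (count minimum 10, total 15), TMM scaling, the quasi-likelihood test on group and Benjamini-Hochberg adjustment over 15063 genes. CPM use TMM-scaled library sizes. Totals of 9121180 to 16724285 counts set the precision. No library pair was a duplicate (chi-square per degree of freedom 2.99 to 20.6 within groups). Recovery of changes by the test was checked on simulated counts in which far fewer genes changed than were called here. Its error rate in these data was not measured.

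The members, the 12 companion lists (154 genes) and the alternatives were chosen with earlier results of these data known. Named were the members, PDZD8 and REST; from each list, up to 3 called genes per direction with the smallest adjusted p; and, for each called member with a mean of at least 5 CPM, the 2 protein-coding genes of at least 5 CPM nearest in pattern. NEUROD1, TMSB15B, CALCA, NEFL and KIF1A were named besides, after their values were seen. Some genes that the rule takes are not reported here. Alternatives were scaling by RLE, total count or upper quartile, no filter or one of 50 counts in 3 samples, a replicate block, leaving out each library, DESeq2 1.42.0, limma 3.58.1 (voom, and log2(TPM + 1) or log2(TPM + 0.1)), glmTreat against 1.5-fold, a length offset, and SLC18A2 and PDZD8 summed. Leave-one-out, DESeq2, voom and length offset fits of that sum were added after seeing the data.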

Additional observations from a re-analysis of the deposited data

How the results depend on the processing

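UCHL1, CHGB and SLC18A2 were called higher under RLE, upper quartile and total count scaling, both other count filters, the length offset, DESeq2, limma-voom and without any 1 library, where 3 of the members were called in each of the 6 fits. Limma called 2 of them on TPM, and glmTreat against 1.5-fold called 1, SLC18A2. SLC18A2 and PDZD8 summed gave -0.34 in place of 2.04. NCAM1 turned from -0.06 to 0.13 with the length offset, and ran from -0.11 to 0.0443 without 1 library. REST turned from -0.22 to 0.071 with the length offset. The causes were not tested. The number of genes called was 5752 (2851 higher, 2901 lower) and 4205 to 5283 without 1 library. They numbered 2861 (1208 higher, 1653 lower) with limma on log2(TPM + 1), 2815 (1186 and 1629) on log2(TPM + 0.1) and 481 (304 and 177) with glmTreat. Over 48 tested named genes there were 860 pairs of gene and alternative, of which 712 kept direction and call, 143 lost the call, 2 gained it and 3 turned direction. The low counts of CHGA (12 with cisplatin, 9 with PBS) and SYP limit both.

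No steady match by replicate number was seen: same-numbered samples deviated with correlations of 0.0658, 0.123 and -0.0760, and not every sample correlated best with its own number. With 3 libraries a group, these values cannot show whether the samples were paired. With the replicate number as a block, 5819 genes and 3 members were called.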

Other observations

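The neurofilament light chain gene NEFL, which encodes a structural protein of axons, stood apart among the neuron markers and was picked out after its values were seen. NEFL had 203, 207 and 213 CPM with cisplatin, against 250, 258 and 275 CPM with PBS, and was called lower by edgeR (log2 fold change -0.33, SE 0.07, adjusted p = 0.00304). The alternative fits, the length offset among them, were not read for NEFL. Its partner in the neurofilament, NEFM, was at 0 in all 6 libraries.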
